A study of Mus musculus with 8 samples.

Results

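The genes described here encode the enzymes and regulators of cholesterol and fatty acid synthesis. Of 33 mouse genes chosen by name, 32 were listed in both deposited expression tables, which hold 13056 and 14319 genes. They comprised 17 sterol enzymes, 9 fatty acid enzymes and 6 regulators, and Mvd, the decarboxylase of the mevalonate branch, was not analysed here. All 32 passed the filter on low values in both experiments (at least 1 FPKM as the mean of the 2 conditions). FPKM counts sequenced fragments per length of transcript and per depth of library, so that levels can be compared between genes of a column. In 2 experiments on mouse embryonic stem cells (mESCs), KLF3, a zinc-finger transcription factor that recruits repressors of transcription, was either reported on or overexpressed. All cells were of the C57BL/6(F) x 129/sv(M) background and were grown in serum medium with leukaemia inhibitory factor on gelatin. In the first experiment, the cells carried a fusion of Emerald GFP with KLF3 cut short before its DNA-binding domain, driven by the CAGGS promoter, and DsRed driven by the EF1α promoter, and DsRed-positive colonies had been picked. The KLF3-GFP-negative and the KLF3-GFP-positive fraction, hereafter negative and positive cells, both carried the construct and were sorted at 500 cells per sample and sequenced after Smart-seq2, which amplifies full-length cDNA from few cells. The second experiment used R26 mESCs, which carry the M2rtTA transactivator at Rosa26 and an FRT site at Col1a1, into which a Klf3 or a GFP sequence had been placed. Doxycycline induced expression for 72 hours (the KLF3-overexpression-72h and GFP-overexpression-72h groups), and poly(A) RNA was sequenced. Clones were picked after selection on feeder cells, so a difference between clones and an effect of KLF3 cannot be told apart.

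Cholesterol and fatty acids are both built from cytosolic acetyl-CoA. In the mevalonate branch, acetyl units are condensed and reduced to mevalonate, which is phosphorylated and decarboxylated to isoprenoid units. These are joined into farnesyl pyrophosphate and squalene, and the ring closure of squalene gives lanosterol, which is trimmed and rearranged to cholesterol. In the fatty acid branch, acetyl-CoA is carboxylated, polymerised to palmitate, lengthened and desaturated. Both branches are driven by the SREBP transcription factors, which are held in the endoplasmic reticulum by SCAP and the INSIG proteins when sterols are plentiful and are cut and released to the nucleus when sterols are scarce. Embryonic stem cells need both kinds of lipid for rapid membrane growth.

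The deposited tables hold 1 value per gene and condition, the authors' mean of 2 samples, so no SD, interval or test stands beside any difference, and the depth behind each value is unknown. Differences are given as log2(FPKM + 1) of the KLF3-GFP-positive or KLF3-overexpressing condition minus its control, a scale on which changes at low FPKM appear smaller than they are. A gene was called upregulated or downregulated when its fold change on this scale was above 2 or below 0.5. The summed marker levels of other cell types moved with both comparisons. All 12 primitive endoderm markers were called upregulated in both, beside 13.8% and 6.60% of all genes tested. Their summed levels were 45.0 FPKM in negative and 1655 FPKM in positive cells, and 203 and 838 FPKM in GFP- and KLF3-overexpressing cells. Of the 10 pluripotency markers, 9 were lower in sorted cells (median difference -0.99) and 5 were called downregulated, beside 8.32% of all genes tested. Their summed level was 21056 FPKM in negative and 11230 FPKM in positive cells. Most of it came from the highest single value, 20569 and 10977 FPKM. Under overexpression 7 were lower and 3 higher (median -0.76), and 4 were called downregulated, beside 10.1% of all genes tested. The summed level was 5713 and 7906 FPKM in GFP- and KLF3-overexpressing cells. Here too most of it came from the highest single value, 3794 and 6334 FPKM. Pou5f1, Sox2 and Nanog were listed in every condition, Nanog at 20.8 and 5.03 FPKM in negative and positive cells and at 255 and 103 FPKM in GFP- and KLF3-overexpressing cells. Trophoblast markers were called upregulated in 2 of 4 tested genes of the sorted cells and in 3 of 6 of the overexpressing cells. The shares of all genes tested were 13.8% and 6.60%. The called genes were Krt8 and Krt18 in both experiments, and Hand1 under overexpression. Tfap2c was lower in both, at 2.40 and 0.77 FPKM in negative and positive cells and at 26.2 and 13.1 FPKM in GFP- and KLF3-overexpressing cells. Of 9 fibroblast markers, 0 and 1 reached the mean of 1 FPKM. Ribosomal protein genes took 30.6% of all FPKM in negative and 26.3% in positive cells, and 29% and 39% in GFP- and KLF3-overexpressing cells. Y-linked Eif2s3y stood at 15.6 and 16.6 FPKM in the sorted cells but at 30.9 FPKM in GFP- and 1.67 FPKM in KLF3-overexpressing cells. Klf3 itself was at 107 and 122 FPKM in the sorted cells, where both fractions carried a construct with part of Klf3 whose reads may be included. It was at 58.7 and 47.8 FPKM in GFP- and KLF3-overexpressing cells, but the induced sequence was codon-optimised, so these reads do not check it. What part these shifts have in the lipid genes' differences was not tested, and in bulk RNA a change in the share of a cell type and a change in RNA per cell cannot be told apart.

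RefSeq promoters on GRCm38 (250 bases before to 50 bases after the start of transcription) were found for 25 of the 32 genes. Fdps, Fdft1, Sqle, Scd1, Scd2, Fads1 and Stard4 had no entry. They were searched on both strands for a sterol response element bound by SREBP (TCACNCCAC), for the CCAAT box bound by NF-Y, which works beside SREBP at many of these promoters, and for the KLF-type CACCC motif (CCNCNCCC). Dhcr7, Srebf1 and Insig2 had matches in more than 1 promoter, and a gene was counted if any of its promoters matched. The same holds for all genes, 27025 with 32851 promoters. This form of the sterol response element was found in 1 of 25 genes (4%), against 1.44% of the 27025 genes with a promoter. An element with other letters, or one outside the bases searched, would be missed, so the other members may still have one. The CCAAT box was found in 20 of 25 (80%), against 41.1% of all genes, and in 13 of the 14 sterol enzymes with an entry. The KLF-type motif was found in 18 of 25 (72%), against 51.9% of all genes, and in 5 of 5 regulators. The 250 bases before the start are shown for Hmgcs1, the 1 member with a match to this form of the sterol response element. Also shown are Idi1, Sc5d and Insig1, which were chosen after their values were seen. They were taken as a gene lower in both experiments, one called upregulated in sorted cells and the regulator with the lowest difference under overexpression. Capitals mark matches to any of the 3 motifs that lie wholly within the stretch. The sequences are written 5′ to 3′ on the gene's strand, with Hmgcs1 at chr13:119690101-119690350 and Idi1 at chr13:8885356-8885605 on the plus strand, Sc5d at chr9:42264301-42264550 on the minus strand and Insig1 at chr5:28071162-28071411 on the plus strand.
Hmgcs1: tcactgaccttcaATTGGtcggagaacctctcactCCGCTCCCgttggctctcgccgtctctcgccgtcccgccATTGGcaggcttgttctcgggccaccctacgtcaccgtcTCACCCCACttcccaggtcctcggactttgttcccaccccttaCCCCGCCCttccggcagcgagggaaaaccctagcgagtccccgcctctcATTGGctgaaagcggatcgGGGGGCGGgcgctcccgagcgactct
Idi1: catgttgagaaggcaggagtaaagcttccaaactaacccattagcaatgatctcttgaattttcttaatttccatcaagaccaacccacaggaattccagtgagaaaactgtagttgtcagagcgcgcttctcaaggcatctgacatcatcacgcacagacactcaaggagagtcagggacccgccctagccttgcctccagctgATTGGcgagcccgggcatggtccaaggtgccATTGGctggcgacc
Sc5d: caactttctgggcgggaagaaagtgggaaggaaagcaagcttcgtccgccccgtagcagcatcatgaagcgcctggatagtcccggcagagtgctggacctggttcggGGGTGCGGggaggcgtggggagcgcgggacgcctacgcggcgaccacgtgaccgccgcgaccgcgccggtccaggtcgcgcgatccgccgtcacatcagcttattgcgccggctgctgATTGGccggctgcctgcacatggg
Insig1: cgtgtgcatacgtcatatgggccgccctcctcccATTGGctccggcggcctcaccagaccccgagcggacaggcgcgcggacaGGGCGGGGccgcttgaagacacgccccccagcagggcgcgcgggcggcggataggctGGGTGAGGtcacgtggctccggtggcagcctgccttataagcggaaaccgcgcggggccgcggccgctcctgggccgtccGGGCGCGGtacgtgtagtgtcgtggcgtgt
The match to the response element in Hmgcs1 began 137 bases before its start. The stretch of Idi1 held 2 CCAAT boxes, 45 and 14 bases before the start, and no match to the KLF-type motif. Sc5d had 1 CCAAT box, 24 bases before the start, and Insig1 had 3 KLF-type matches. These are matches of letters, not measured binding, and for Idi1 and Insig1 the gene's span in the deposited tables begins within the stretch shown.

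KLF3-GFP-positive cells had higher levels of most lipid synthesis genes than their negative counterparts. Of the 32 genes, 26 were higher and 6 lower, and their median difference was 0.43 on the log2 scale, against 0.03 for all 9212 genes tested, of which 51.7% were higher. Sc5d, Cyp51, Ebp, Scd1, Fasn and Stard4 were called upregulated and none was called downregulated. These 6 are 18.8% of the members, beside 13.8% of all genes tested called upregulated and 8.32% called downregulated in this comparison. With a pseudocount of 0.1, Lss, Fads1 and Srebf1 were called upregulated as well, 9 of 32 members (28.1%) beside 1662 of the 9212 genes, and Fads2 was called downregulated. Under overexpression most of them were lower instead. Of the 32 genes, 27 were lower and 5 higher in KLF3- than in GFP-overexpressing cells, with a median difference of -0.80 against -0.18 for all 11179 genes tested, of which 59.4% were lower. Downregulated were 11 members (34.4%), beside 10.1% of all genes, and 0 were called upregulated, beside 6.60% of all genes. After median-ratio scaling 5 members were called downregulated and 2 upregulated, beside 695 and 1164 of the 11179 genes.

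**Figure D1:**
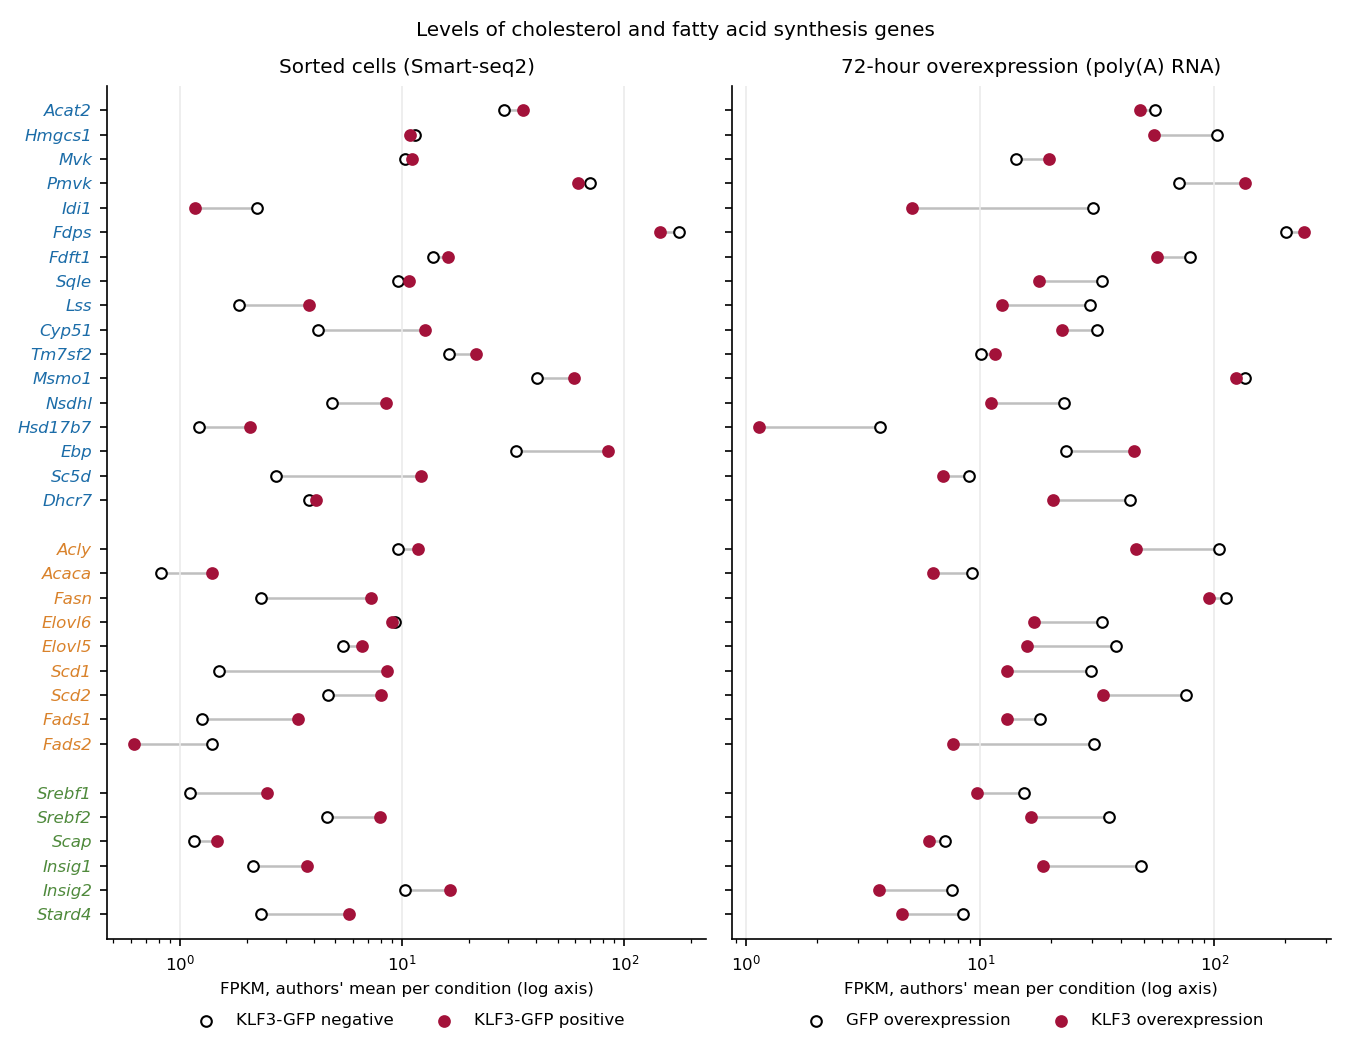
FPKM of the 32 cholesterol and fatty acid synthesis genes on a log axis, sorted cells on the left and overexpressing cells on the right. Each row is a gene, in pathway order within sterol enzymes (blue), fatty acid enzymes (orange) and regulators (green). Open circles are the control condition and filled circles the KLF3-GFP-positive or KLF3-overexpressing condition, each the authors' mean of 2 samples. Filled circles lie mostly to the right of the open ones in sorted cells (26 of 32) and mostly to the left under overexpression (27 of 32).

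The first enzymes of the sterol branch, which lead from acetyl-CoA to squalene epoxide, stayed within 2-fold between the sorted cells, with Idi1 the closest to that limit. Acat2, which condenses acetyl-CoA to acetoacetyl-CoA, was at 28.7 FPKM in negative and 34.9 FPKM in positive cells (log2 difference 0.27). Hmgcs1, which adds the third acetyl unit, was at 11.4 and 10.8 FPKM (-0.07). Mvk, the kinase of mevalonate, was at 10.2 and 11.1 FPKM (0.10), a direction that turned after quantile normalization (-0.02) and scaling without ribosomal protein genes (-0.04). Pmvk, which adds the second phosphate, was abundant in both at 69.7 and 61.9 FPKM (-0.17). Fdps, which makes farnesyl pyrophosphate, was the most abundant of the 32 genes in all 4 conditions and was at 176 and 144 FPKM in the sorted cells (-0.29). Idi1, the isomerase that supplies the reactive isoprenoid unit, had the lowest difference of the sterol enzymes, with 2.21 and 1.16 FPKM (-0.57). Fdft1, squalene synthase, was at 13.8 and 16.1 FPKM (0.21), and its exons share 774 bases with Ctsb on the other strand. Ctsb, the lysosomal protease cathepsin B, rose from 11.9 to 46.8 FPKM in the sorted cells, and Smart-seq2 libraries do not mark strand, so reads of the overlap cannot be told apart. Sqle, squalene epoxidase, was at 9.53 and 10.7 FPKM (0.16). None of these 8 genes was called in either direction, 4 being higher and 4 lower. Of all genes tested, 13.8% were called upregulated and 8.32% downregulated.

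From lanosterol synthase onwards, the 9 sterol enzymes were higher in positive cells, except that Dhcr7 turned to -0.06 after quantile normalization and to -0.04 after scaling without ribosomal protein genes. This split of the pathway was made after the values were seen. Lss, which closes the rings to lanosterol, was at 1.84 FPKM in negative and 3.80 FPKM in positive cells (log2 difference 0.76). Cyp51, which removes the first methyl group of lanosterol, rose from 4.17 to 12.6 FPKM (1.39). Its exons share 166 bases with Akap9 on the other strand, which was at 36.8 and 48.4 FPKM. Reads of this overlap cannot be told apart either. Tm7sf2, a sterol reductase, was at 16.2 and 21.4 FPKM (0.38). Msmo1, Nsdhl and Hsd17b7 together remove the methyl groups at carbon 4 of the sterol. Msmo1, the oxidase, was at 40.5 and 59.5 FPKM (0.54), Nsdhl, the decarboxylating dehydrogenase, at 4.83 and 8.42 FPKM (0.69), and Hsd17b7, the ketoreductase, at 1.22 and 2.07 FPKM (0.47). Ebp, the isomerase of the sterol double bond, rose from 32.6 to 84.8 FPKM (1.35) and became the second most abundant of the 32 genes. Sc5d, a desaturase of a late step, had the largest difference of the sterol enzymes, with 2.71 FPKM in negative and 12.1 FPKM in positive cells (1.82, a 4.46-fold ratio of FPKM). Dhcr7, the last reductase to cholesterol, was nearly level at 3.81 and 4.10 FPKM (0.08). Over the 17 sterol enzymes, 3 (17.6%) were called upregulated, beside 13.8% of all genes tested. The median difference was 0.27, against 0.69 for the 9 from Lss onwards.

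Fatty acid enzymes ranged from 0.82 to 9.61 FPKM in negative cells, where sterol enzymes ranged from 1.22 to 176 FPKM. Acly, which makes cytosolic acetyl-CoA from citrate, was at 9.61 and 11.8 FPKM (log2 difference 0.27), and Acaca, the carboxylase that commits acetyl-CoA to fatty acids, at 0.82 and 1.39 FPKM (0.39). Fasn, fatty acid synthase, rose from 2.31 to 7.22 FPKM (1.31). The elongases stayed close, Elovl6 with 9.27 and 8.95 FPKM (-0.05) and Elovl5 with 5.43 and 6.58 FPKM (0.24). The desaturases differed more. Scd1, which introduces the first double bond into saturated fatty acids, had the largest difference of all 32 genes and rose from 1.5 to 8.54 FPKM (1.93, a 5.69-fold ratio). Scd2, its close paralog 87585 bases away on chromosome 19, was at 4.62 and 8.04 FPKM (0.69). Of the desaturases of polyunsaturated fatty acids, Fads1 was at 1.26 and 3.38 FPKM (0.95) and Fads2 at 1.39 and 0.62 FPKM (-0.56). The genes lie 81383 bases apart on chromosome 19, on opposite strands. Fads2 and Acaca reached the mean of 1 FPKM only through the condition in which each was higher. Of the 9 fatty acid enzymes 7 were higher and 2 lower, and 2 (22.2%) were called upregulated, beside 13.8% of all genes tested. The median difference was 0.39, which is the value of Acaca. With a mean of at least 5 FPKM, 5 of the enzymes were left, with a median of 0.27.

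All 6 regulators were higher in positive cells, with a median difference of 0.65. With a mean of at least 5 FPKM, 2 of them were left, Srebf2 and Insig2, and the median was again 0.65. Srebf1, which encodes the SREBP that acts mainly on fatty acid genes, was at 1.11 FPKM in negative and 2.46 FPKM in positive cells (log2 difference 0.71). Srebf2, whose product acts mainly on sterol genes, was at 4.59 and 7.91 FPKM (0.67). Scap, the escort and sterol sensor of the SREBPs, was at 1.15 and 1.46 FPKM (0.19). The retention factors Insig1 and Insig2 were at 2.12 and 3.72 FPKM (0.60) and at 10.3 and 16.4 FPKM (0.62). Stard4, a carrier of cholesterol between membranes, rose from 2.30 to 5.73 FPKM (1.03). It was the 1 of 6 regulators called upregulated (16.7%), beside 13.8% of all genes tested. It stood close to the limit of 2-fold and fell below it after median-ratio scaling, quantile normalization or scaling without ribosomal protein genes.

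**Figure D2:**
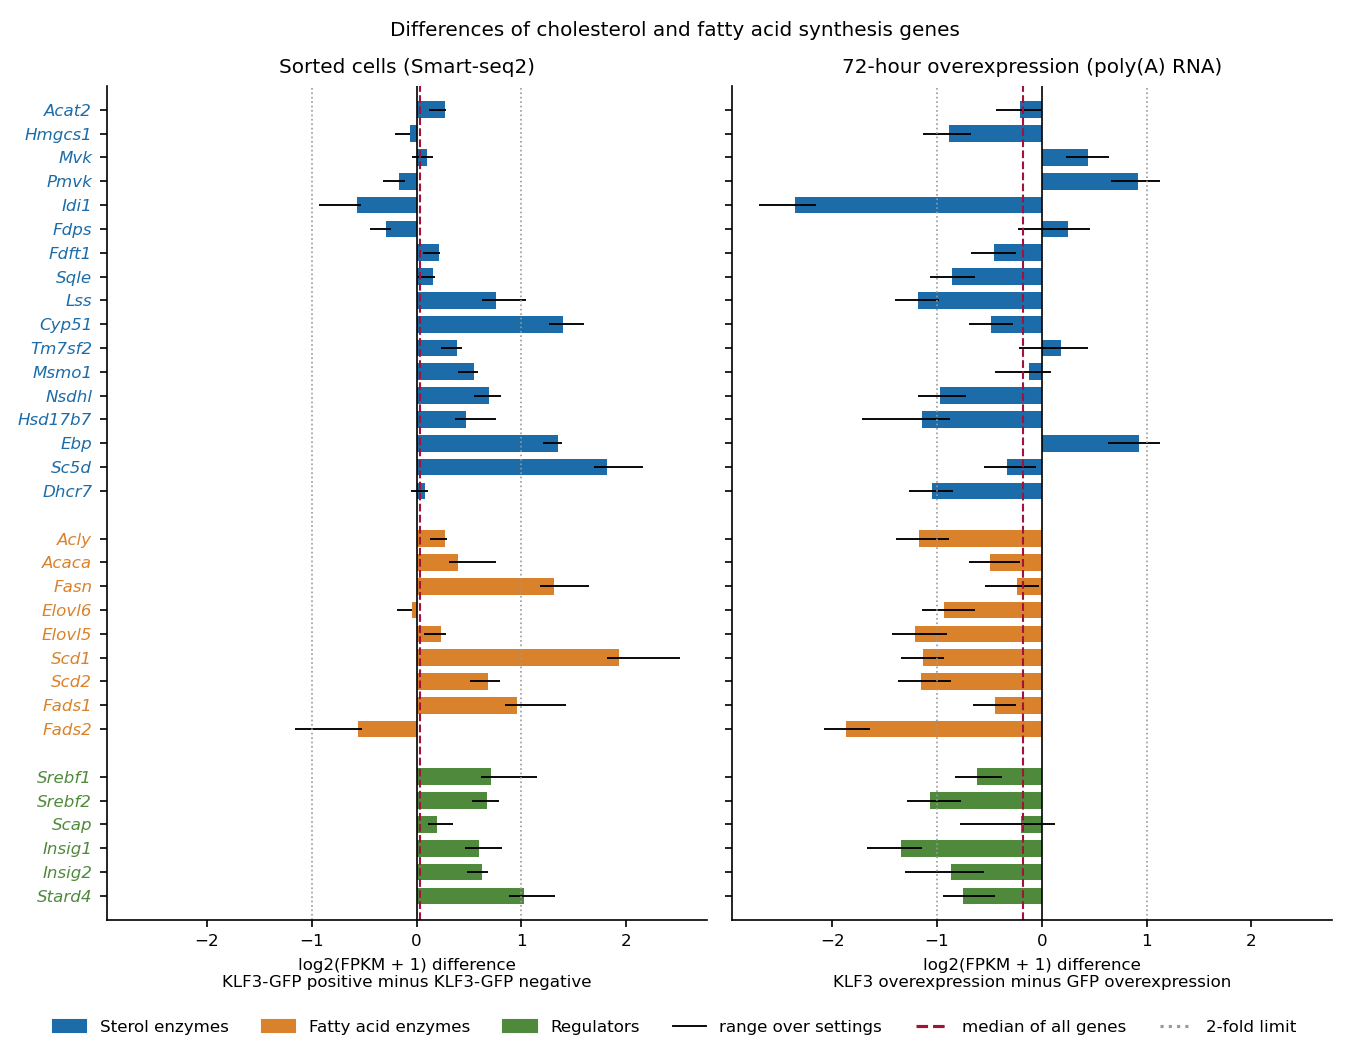
Log2(FPKM + 1) differences of the 32 genes, KLF3-GFP-positive minus negative on the left and KLF3 minus GFP overexpression on the right. Bars are the reported differences, black lines span the 9 other processing settings and the reported value, the dashed line is the median of all genes tested and dotted lines mark the 2-fold limit. Sc5d and Scd1 reach 1.82 and 1.93 on the left, and Idi1 and Fads2 reach -2.36 and -1.87 on the right.

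Under overexpression, Idi1 had the largest difference of all 32 genes. It fell from 30.3 FPKM in GFP- to 5.12 FPKM in KLF3-overexpressing cells (log2 difference -2.36, a 5.92-fold lower FPKM), and 0.188% of all genes tested lay below it. Idi1 (ENSMUSG00000058258) lies on chromosome 13 of mm10 from 8885500 to 8892451, and its exons share 323 bases with Gm48574 on the other strand. The enzymes before it were not shifted together. Acat2 was at 55.8 and 48.0 FPKM (-0.21) and Hmgcs1 at 102 and 54.9 FPKM (-0.89), whereas Mvk was higher with 14.2 and 19.6 FPKM (0.44) and Pmvk with 70.7 and 135 FPKM (0.92). Fdps, at 203 and 241 FPKM (0.25), shares 1124 exon bases with Gm43738 on its strand, so that the division of reads between them is uncertain, and its direction turned under 2 of the 9 other settings. Fdft1 was at 78.3 and 56.8 FPKM (-0.46), while Ctsb, its overlapping gene, was at 32.2 and 29.2 FPKM in this experiment. Sqle was at 33.0 and 17.8 FPKM (-0.85). Of these 8 genes 1 (12.5%), Idi1, was called downregulated, beside 10.1% of all genes tested.

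The late sterol enzymes were mostly lower as well. Lss fell from 29.5 FPKM in GFP- to 12.4 FPKM in KLF3-overexpressing cells (log2 difference -1.18), Hsd17b7 from 3.72 to 1.13 FPKM (-1.15) and Dhcr7 from 43.4 to 20.5 FPKM (-1.05). Nsdhl, at 22.7 and 11.1 FPKM (-0.97), stayed just short of the limit, and Cyp51 was at 31.6 and 22.3 FPKM (-0.48). Sc5d, which had risen most of the sterol enzymes in sorted cells, was at 8.96 and 6.93 FPKM (-0.33). Msmo1, at 135 and 124 FPKM (-0.12), turned direction after median-ratio scaling. Ebp stood apart from its neighbours in the pathway with 23.3 FPKM in GFP- and 45.2 FPKM in KLF3-overexpressing cells (0.93). Tm7sf2 was at 10.04 and 11.5 FPKM (0.18), a direction that turned under 2 of the other settings. Its exons share 532 bases with Vps51 on the same strand, and Vps51, which encodes a vesicle tethering subunit, rose from 18.6 to 43.7 FPKM. Ebp and Pmvk passed the limit of 2-fold after median-ratio scaling, each with a difference of 1.13, and Ebp was the only sterol enzyme called upregulated in the sorted cells that was also higher under overexpression. Over the 17 sterol enzymes, 12 were lower and 4 (23.5%) called downregulated, with a median of -0.46. Of all genes tested, 59.4% were lower and 10.1% called downregulated.

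All 9 fatty acid enzymes were lower in KLF3-overexpressing cells, with a median difference of -1.13. Of these 5 (55.6%) were called downregulated, beside 10.1% of all genes tested. Acly fell from 105 to 46.1 FPKM (log2 difference -1.17) and Elovl5 from 38.0 to 15.9 FPKM (-1.21). Of the desaturases, Scd1 fell from 29.8 to 13.1 FPKM (-1.13), Scd2 from 75.5 to 33.5 FPKM (-1.15) and Fads2 from 30.6 to 7.66 FPKM (-1.87, a 3.99-fold lower FPKM). Fads2 (ENSMUSG00000024665) lies on chromosome 19 of mm10 from 10064163 to 10101503. Its neighbour Fads1 was at 18.1 and 12.99 FPKM (-0.45). Elovl6 was at 33.0 and 16.9 FPKM (-0.93). Smaller differences were seen for Acaca with 9.21 and 6.25 FPKM (-0.49) and Fasn with 112 and 94.9 FPKM (-0.23).

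The 6 regulators were likewise all lower, with a median of -0.81. Insig1 fell from 48.6 to 18.6 FPKM (log2 difference -1.34) and Srebf2 from 35.5 to 16.5 FPKM (-1.06). Both are themselves known targets of SREBP, but the activity of SREBP was not tested. Srebf1 was at 15.4 and 9.68 FPKM (-0.62), Insig2 at 7.53 and 3.69 FPKM (-0.86) and Stard4 at 8.44 and 4.62 FPKM (-0.75). Scap was at 7.06 and 6.04 FPKM (-0.20), with a direction that turned under 2 of the other settings. The median of all genes was -0.18 in this comparison. After median-ratio scaling, which moves it to 0, 2 of 17 sterol enzymes (Idi1 and Hsd17b7), 2 of 9 fatty acid enzymes (Elovl5 and Fads2) and 1 of 6 regulators (Insig1) were called downregulated, beside 2 sterol enzymes upregulated. Over all 11179 genes tested, 695 were called downregulated and 1164 upregulated under this scaling.

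The 2 experiments thus differed in direction for most of these genes. Of the 32, 23 (71.9%) were higher in positive cells and lower in KLF3-overexpressing cells, against 27.9% of the 8887 genes tested in both. By group these were 10 of 17 sterol enzymes, 7 of 9 fatty acid enzymes and 6 of 6 regulators. Scd1 was called upregulated in the sorted cells and downregulated under overexpression, as 1 of 32 members (3.12%) beside 0.484% of all genes tested in both. With a pseudocount of 0.1 or a floor of 0.1 these were 2 members, Scd1 and Lss, and after median-ratio scaling or quantile normalization 0. Lower in both were Hmgcs1, Idi1, Elovl6 and Fads2, higher in both were Mvk, Tm7sf2 and Ebp (Mvk and Tm7sf2 not under every setting), and lower in sorted cells but higher under overexpression were Pmvk and Fdps. Under the other settings 65.0% to 71.9% of the members tested combined the first 2 directions. The experiments also differed in library protocol, cell line and level of the genes. Scd1, for example, was at 1.5 FPKM in negative and 29.8 FPKM in GFP-overexpressing cells, and Insig1 at 2.12 and 48.6 FPKM, but the tables were normalized separately, and these levels were not compared further.

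**Figure D3:**
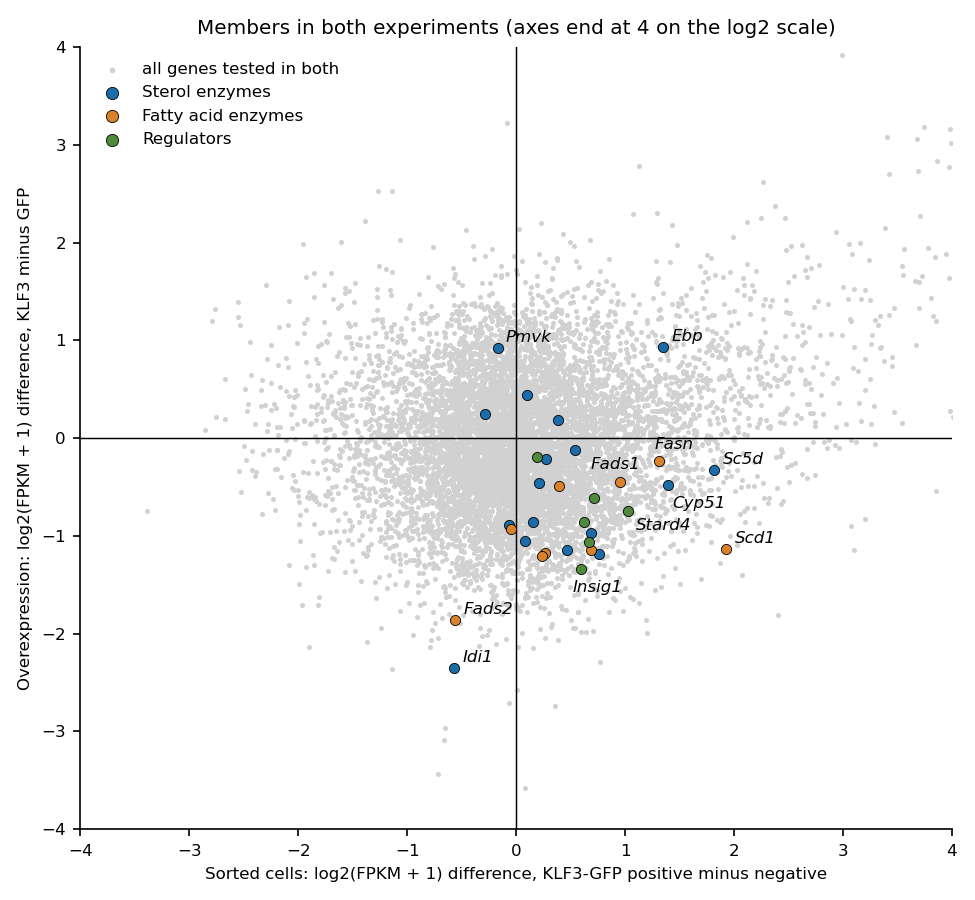
Log2(FPKM + 1) difference in sorted cells (horizontal) against the difference under overexpression (vertical). Grey points are the 8887 genes tested in both experiments, of which those beyond 4 in size are outside the axes, and coloured points the 32 members. Of the members, 23 lie at the lower right, Idi1 and Fads2 lie at the lower left and Ebp at the upper right.

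Relative to the median of all genes, the direction of each of the 3 groups was kept under all 9 other settings. Several of these settings could hardly turn it. A change of pseudocount, floor or minimum keeps the sign of each gene's difference. Median-ratio scaling and scaling without ribosomal protein genes shift most genes alike. In sorted cells, the median of the sterol enzymes lay 0.20 to 0.27 above the median of all genes, that of the fatty acid enzymes 0.27 to 0.72 and that of the regulators 0.60 to 0.76 above it. Under overexpression, the corresponding medians lay between -0.42 and -0.19, between -1.04 and -0.68 and between -0.75 and -0.46. No replicate error can be given for these medians.

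**Figure D4:**
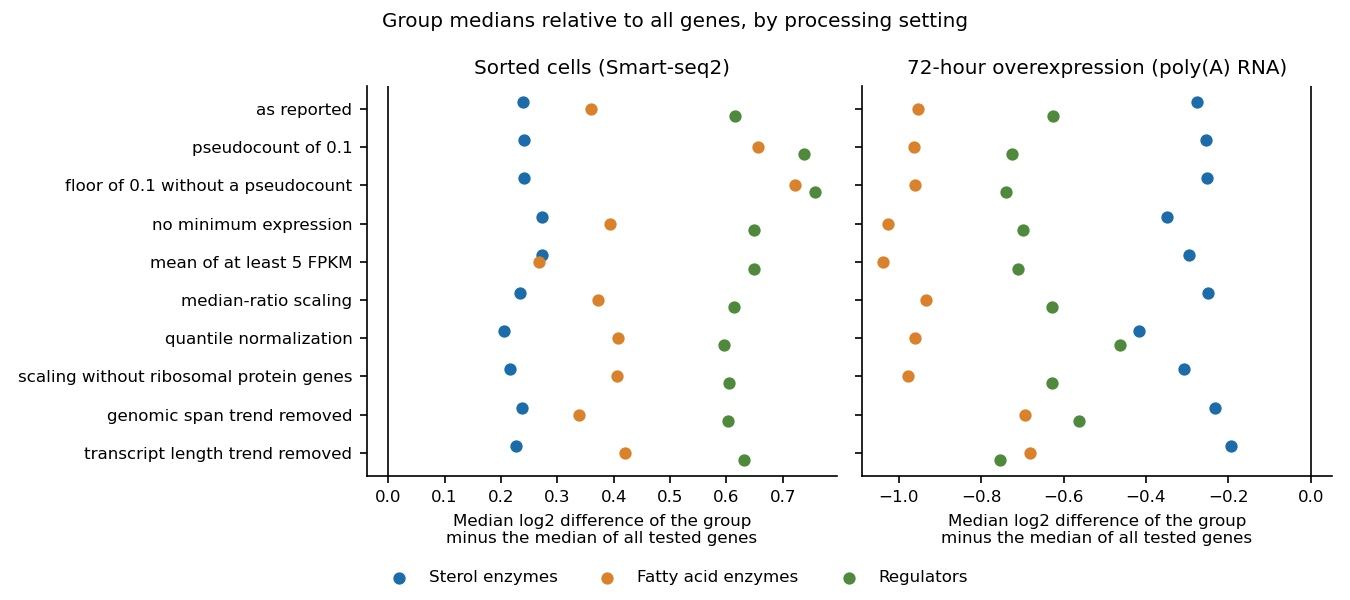
Median log2 difference of sterol enzymes, fatty acid enzymes and regulators minus the median of all genes tested, under the reported and 9 other settings, for sorted cells (left) and overexpressing cells (right). Each point is a group under 1 setting. The points lie to the right of 0 in sorted cells and to the left of 0 under overexpression.

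Further genes of the pathway were taken from lists by name. Of 30 other synthesis genes, which supply NADPH and acyl-CoA or carry out other elongation steps, 23 were tested in the sorted cells, where 7 (30.4%) were called upregulated and 2 (8.7%) downregulated, beside 13.8% and 8.32% of all genes (median 0.45). Largest were Elovl1, the elongase of very long chains, which rose from 8.47 to 61.7 FPKM (log2 difference 2.73), Me1, malic enzyme and a source of NADPH, from 1.16 to 9.89 FPKM (2.33), and Hacd1, a dehydratase of elongation, from 13.9 to 41.0 FPKM (1.5). Under overexpression 1 of 28 (3.57%) was called upregulated and 2 (7.14%) downregulated, beside 6.60% and 10.1% of all genes (median -0.31, against -0.18). Acsl1 and Acsl3, which activate fatty acids to acyl-CoA, fell from 14.6 to 3.64 FPKM (-1.75) and from 32.9 to 15.6 FPKM (-1.03), while Hacd1 rose from 5.89 to 13.6 FPKM (1.08). Of 16 genes for SREBP processing and its partner factors, 15 were tested in sorted cells (median 0.42). Of these 4 (26.7%) were called upregulated and 1 (6.67%) downregulated, beside 13.8% and 8.32% of all genes. Erlin2, which takes part in the degradation of sterol-regulated proteins, rose from 1.22 to 4.97 FPKM (1.43) and Pgrmc1, a membrane sterol-binding protein, from 17.7 to 43.6 FPKM (1.26), and Nfyb, a subunit of NF-Y, fell from 55.7 to 23.7 FPKM (-1.20). Under overexpression 3 of 16 (18.8%) were called downregulated and 0 upregulated, beside 10.1% and 6.60% of all genes (median -0.54). Mbtps2, the protease of the second cut that releases SREBP, fell from 8.23 to 2.54 FPKM (-1.38), Sp1, a partner factor, from 22.4 to 9.82 FPKM (-1.11) and Nfya, another subunit of NF-Y, from 16.2 to 7.18 FPKM (-1.07).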

How the data were processed

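RNA-seq libraries of 8 samples, 2 for each of 4 conditions, were assigned to groups by the labels. The authors used STAR with GENCODE transcripts on mm10 and took FPKM from Cufflinks (version 2.2.1), and they deposited 1 FPKM column per condition, the average of 2 replicates, rounded to 2 decimals with 0.1 as the lowest value. The STAR version in the submitters' processing notes (2.6.0) differs from that in the study's methods. Depth is unknown, and single samples were not analysed here.

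Members and lists were chosen with earlier results of these data known. Differences of log2(FPKM + 1) were computed within each table where the mean of both columns reached 1 FPKM, and called at a fold above 2 or below 0.5. The study's own test needs read counts, so only its fold limit was used. From each further list, the 3 genes with the largest absolute difference per experiment were named. Not every such gene is reported here. Exon overlaps and transcript lengths came from GENCODE M21, on the same assembly, and promoters from RefSeq on GRCm38. Alternatives were another pseudocount, floor or minimum, median-ratio, quantile and non-ribosomal scaling, and removal of lowess trends (fraction 0.3) with genomic span or transcript length. Scripts (python 3.11.15, pandas 2.3.3, statsmodels 0.14.6) were tested on simulated data.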

Additional observations from a re-analysis of the deposited data

How the results depend on the processing

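In sorted cells, a pseudocount of 0.1 and a floor of 0.1 without a pseudocount gave fatty acid medians of 0.70 and 0.76, with 1 fatty acid enzyme (Fads2) called downregulated and 2 regulators upregulated under each. A mean of at least 5 FPKM left 840 genes upregulated and 417 downregulated, 1 fatty acid enzyme and 0 regulators upregulated. Median-ratio, quantile and non-ribosomal scaling left 0 regulators upregulated. Under overexpression, all genes called downregulated numbered 1819 (pseudocount of 0.1), 1912 (floor of 0.1) and 734 (mean of at least 5 FPKM). Median-ratio scaling gave 1164 genes up and 695 down, 2 sterol enzymes up and 2 down (median -0.25), and 2 fatty acid enzymes and 1 regulator down. Quantile normalization gave 711 genes and 1 regulator down (regulator median -0.50). Scaling without ribosomal protein genes gave 431 genes up and 1857 down, 7 sterol enzymes down (median -0.68) and a fatty acid median of -1.35. Removal of the trend with genomic span gave 480 genes up, 3 fatty acid enzymes (median -0.88) and 1 regulator down, and removal of that with transcript length a fatty acid median of -0.87. The cause of these shifts was not tested. Of the other list and all-gene values, 86 in sorted and 76 in overexpressing cells stayed within 0.2 on the log2 scale or 1.5 times the count.

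No paired analysis was possible because the tables hold 1 average per condition, and for the same reason leaving out a replicate could not be run. Depth is unknown, so the precision of levels near 1 FPKM, such as those of Hsd17b7, Idi1, Scap, Acaca and Fads2 in sorted cells, is unknown too. Acat2, Scd1 and Scd2 have close paralogs, and how reads were divided among them is uncertain.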

Other observations

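Genes that take up, store and burn lipids were measured beside those that make them. Of 17 genes of sterol uptake and traffic, 14 were tested in the sorted cells, where 8 (57.1%) were called upregulated and 0 downregulated, beside 13.8% and 8.32% of all genes tested (median difference 1.02). Dab2, an adaptor of endocytosis that is also 1 of the 12 primitive endoderm markers, rose from 0.78 FPKM in KLF3-GFP-negative cells to 233 FPKM in positive cells. The endocytic receptor subunit Amn rose from 2.39 to 185 FPKM, and its partner Cubn from the table's lowest value of 0.1 to 27.8 FPKM. Under overexpression 5 of 16 (31.2%) were called upregulated and 0 downregulated, beside 6.60% and 10.1% of all genes, with Amn at 1.18 and 11.7 FPKM, Dab2 at 6.26 and 34.7 FPKM and Lrpap1, the chaperone of lipoprotein receptors, at 68.8 and 225 FPKM. The median of that list was -0.18, as for all genes.

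Soat1, which esterifies cholesterol for storage, rose from 31.6 to 1042 FPKM between negative and positive cells, a 33-fold ratio, and was at 5.70 and 9.05 FPKM in GFP- and KLF3-overexpressing cells. Its paralog Soat2 rose in both, from 1.37 to 7.24 FPKM and from 1.40 to 4.13 FPKM. Plin3, a lipid droplet coat protein, rose from 13.99 to 49.96 FPKM in the sorted cells. Of 9 tested genes of efflux and storage 4 (44.4%) were called upregulated and 1 (11.1%) downregulated there, beside 13.8% and 8.32% of all genes. Under overexpression, the sterol exporter Abcg1 was at 4.55 and 1.93 FPKM and Mylip, a ligase that marks lipoprotein receptors for degradation, at 2.04 and 0.73 FPKM. In that experiment 1 of 11 genes (9.09%) was called upregulated and 0 downregulated, beside 6.60% and 10.1% of all genes.

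Of 17 tested genes of fatty acid oxidation, 2 (11.8%) were called upregulated and 0 downregulated in the sorted cells. The shares of all genes tested were 13.8% and 8.32%. Acadl, a dehydrogenase of long chains, rose from 5.53 to 17.98 FPKM there, and Acadvl, which acts on very long chains, was at 18.7 and 37.6 FPKM. Under overexpression 1 of 18 genes of this list (5.56%) was called upregulated and 3 (16.7%) downregulated, beside 6.60% and 10.1% of all genes. Cpt1a and Cpt1b, which admit fatty acids to mitochondria, fell from 23.6 to 6.44 FPKM and from 5.62 to 1.80 FPKM, and Acadm, a dehydrogenase of medium chains, from 99.3 to 38.0 FPKM.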
